A study of Homo sapiens with 10 samples.

Results

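The clustered protocadherins are cell surface adhesion proteins that are encoded in 3 neighbouring gene clusters, alpha, beta and gamma, on human chromosome 5. Of the 59453 genes in the deposited count tables, 54 carried a symbol of these clusters and were taken by symbol alone: 16 alpha genes including the pseudogene PCDHA14, 16 beta genes and 22 gamma genes. They lie in that order on the plus strand, from PCDHA1 at chr5:140786136-141012347 to PCDHGC5 at chr5:141489081-141512975 (GRCh38, GENCODE release 44). RNA-seq was performed on HAP1, a near-haploid human line that descends from the KBM-7 leukaemia line, to ask how loss of the DNA glycosylases OGG1, which cuts out oxidised guanine, and MUTYH, which takes away an adenine wrongly paired with it, changes gene expression. Untreated wild-type cells (WT), cells with a CRISPR-Cas9 insertion or deletion in MUTYH (MUTYH-/), in OGG1 (OGG1-/) or in both genes (DKO) were each sequenced as 2 clones: WT clones 11 and 2, MUTYH-/ clones 7 and 8, OGG1-/ clones 1 and 22, and DKO clones 4 and 14. WT clones 11 and 2 were also sequenced 24 h after 100 µM H2O2. Every library is 1 culture of 1 clone, so a genotype and the 2 clones that stand for it cannot be told apart beyond the spread between those clones. The study lists its second OGG1-/ clone, whose product number ends as the label of OGG1-/ clone 22 does, as the parent of both DKO clones. The GEO labels do not state this parentage.

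Each alpha and gamma gene joins its own large first exon, with its own promoter, to constant exons that all genes of that cluster share, while a beta gene is a single exon of its own. In neurons the promoters are chosen largely at random in each cell through DNA methylation and loops made by CTCF and cohesin, which gives neighbouring neurons different surface codes, and the choice can be passed on through cell division. The C-type genes at the ends of the alpha and gamma clusters follow other rules and are expressed more broadly. In clones of a cell line, a member that is high in 1 clone and near 0 in the next is the pattern that such a choice would leave.

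The 10 libraries held between 22225091 and 22674964 counts each, so that 1 CPM, a count per 1000000 of a library's total scaled by the trimmed mean of M-values (TMM), stood for about 22.2 counts in the smallest library. OGG1 was at 1.22 CPM in OGG1-/ clone 1 and between 9.63 and 14.6 CPM in the other 9 libraries, and MUTYH was between 2.21 and 5.38 CPM in all 10. The RNA level therefore checks the label of OGG1-/ clone 1 but not those of the other knockout clones, whose small insertions and deletions need not remove the RNA. At the protein level, the paper reports that all its knockout clones were verified with targeted mass spectrometry. Of 7 blood cell markers, 6 were below 1 CPM in every library and the remaining marker, CD34, reached 1.03 CPM, while BCR and ABL1, the fusion partners of the parental leukaemia, were between 23.8 and 30.5 and between 20.8 and 33.7 CPM. The untreated libraries fell into 2 sides on the first principal component of all other genes, after the genotype means were removed, which held 49.98% of that variance. WT clone 2, MUTYH-/ clone 8, OGG1-/ clone 22 and DKO clone 14 stood on side A, and WT clone 11, MUTYH-/ clone 7, OGG1-/ clone 1 and DKO clone 4 on side B. Removing the mean of 2 clones gives them equal and opposite scores, so 1 clone of each genotype on each side was fixed by the method. It also leaves few components to share the variance. Which clones stand together was found in the data, and the labels name nothing that matches it. A fit with the sides as a block is given beside the genotype results.

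The way that reads were counted limits what can be seen of these genes. PCDHA1 has 7 bases of exon, of 5595, that no other annotated gene overlaps, the pseudogene PCDHA14 has 0, and both had 0 counts in all 10 libraries, so their level is unknown. Across the table, 52 of 57 genes with no unshared base on either strand but over 500 on their own strand were at 0 in all 10 libraries (91.2%), against 22.1% of the 27672 genes with over 500 unshared bases. The unshared share of the exon bases ran from 56.1% to 100% in the beta cluster and from 35.6% to 72.5% in the gamma cluster, and from 36.3% to 78.6% in the alpha genes other than PCDHA1 and PCDHA14. Counts of alpha and gamma genes were therefore read as counts of their own exons, and levels were ranked between genes as CPM per kb of unshared exon. The rule of 1 CPM for a member that is on, and shares of a cluster's counts, are not scaled by length. Near-identical stretches also matter: 41.8% of the 50-base words in PCDHB8, 27.1% of those in PCDHB2 and 19.1% of those in PCDHB3 occur in another member, mainly PCDHB13, PCDHB3 and PCDHB2, in that order, against 7.04% in PCDHB5, 6.30% in PCDHGA10 and 0 in PCDHGC3 and PCDHAC2.

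The promoters show what the members share and where they differ. RefSeq promoter sequences, from 250 bases before to 50 bases after each gene's start (GRCh38.p14), were at hand for 47 of the 54 genes and for 27305 genes in all. CGCT is the core of an element that is conserved among protocadherin promoters, but so short a word can also occur outside it. Somewhere in the window, on either strand, CGCT was present in 46 of 47 members (97.9%) and in 68.8% of all promoters. PCDHA9 was the exception, and its window begins inside the gene as GENCODE annotates it. The longer word TGGCGCT, which contains CGCT, was present in 13 of 14 beta promoters, 3 of 20 gamma promoters and 0 of 13 alpha promoters, and in 4.10% of all promoters on either strand. The word TGTCGCT, which also contains CGCT, was present in 10 of 13 alpha promoters, 1 of 14 beta promoters and 3 of 20 gamma promoters, against 1.75% of all. Both longer words were chosen after the member promoters had been read. The median number of CpG dinucleotides, the sites that DNA methylation acts on, was 7 in the members and 13 in all promoters. The 5 promoters below belong to the 3 beta genes that differed most plainly between clones and to the 2 gamma genes with the highest levels, and every CGCT on the gene strand is in capitals.
PCDHB2 (chr5:141094365-141094664, plus strand): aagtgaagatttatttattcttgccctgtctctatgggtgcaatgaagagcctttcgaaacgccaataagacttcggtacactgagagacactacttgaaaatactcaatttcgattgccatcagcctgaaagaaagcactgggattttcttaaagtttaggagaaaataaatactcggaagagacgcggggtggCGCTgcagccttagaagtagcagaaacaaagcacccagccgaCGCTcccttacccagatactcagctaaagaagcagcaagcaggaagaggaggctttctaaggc
PCDHB5 (chr5:141134956-141135255, plus strand): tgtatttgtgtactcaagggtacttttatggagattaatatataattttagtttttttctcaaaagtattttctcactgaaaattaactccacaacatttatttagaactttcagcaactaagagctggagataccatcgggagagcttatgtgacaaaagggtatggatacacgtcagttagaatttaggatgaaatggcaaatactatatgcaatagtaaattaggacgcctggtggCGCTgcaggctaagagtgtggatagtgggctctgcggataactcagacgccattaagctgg
PCDHB12 (chr5:141208469-141208768, plus strand): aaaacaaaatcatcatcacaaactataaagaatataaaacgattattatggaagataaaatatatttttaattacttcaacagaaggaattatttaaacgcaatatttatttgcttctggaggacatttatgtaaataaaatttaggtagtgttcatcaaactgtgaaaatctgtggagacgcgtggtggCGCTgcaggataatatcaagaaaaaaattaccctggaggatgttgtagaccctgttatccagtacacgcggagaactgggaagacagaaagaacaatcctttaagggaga
PCDHGA10 (chr5:141412737-141413036, plus strand): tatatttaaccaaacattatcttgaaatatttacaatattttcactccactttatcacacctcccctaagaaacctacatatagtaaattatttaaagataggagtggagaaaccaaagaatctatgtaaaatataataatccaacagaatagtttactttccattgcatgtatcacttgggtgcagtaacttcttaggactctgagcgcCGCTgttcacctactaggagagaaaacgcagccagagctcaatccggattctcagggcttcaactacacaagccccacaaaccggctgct
PCDHGC3 (chr5:141475716-141476015, plus strand): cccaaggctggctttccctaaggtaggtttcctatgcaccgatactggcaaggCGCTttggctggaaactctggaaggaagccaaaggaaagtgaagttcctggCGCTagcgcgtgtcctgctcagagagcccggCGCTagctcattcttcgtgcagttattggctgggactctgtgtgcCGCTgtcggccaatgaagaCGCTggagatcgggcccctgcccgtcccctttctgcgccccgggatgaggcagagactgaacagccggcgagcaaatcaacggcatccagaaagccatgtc

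PCDHB2, PCDHB5, PCDHB12 and PCDHGC3 each hold TGGCGCT in these windows. PCDHGC3 has 5 copies of CGCT, PCDHB2 has 2, and the other 3 promoters have 1 each. A match of these letters is a description and no sign of binding.

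Members were called on at 1 CPM or more, and not detected at 3 counts or fewer, the upper limit for an observed count of 0. By this measure 25 of the 54 members were on in at least 1 of the 8 untreated libraries, 8 of them in all 8 and 17 in some. The 29 others stayed below 1 CPM throughout, 16 members had 3 counts or fewer in each of the 10 libraries, and 3 (PCDHA1, PCDHA14 and PCDHB1) had 0 in all. A single library held 9 to 17 members that were on, with the fewest in OGG1-/ clone 22 (9) and the most in OGG1-/ clone 1 (17). In these bulk libraries, fewer cells that express a member and less RNA per cell cannot be told apart.

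**Figure D1:**
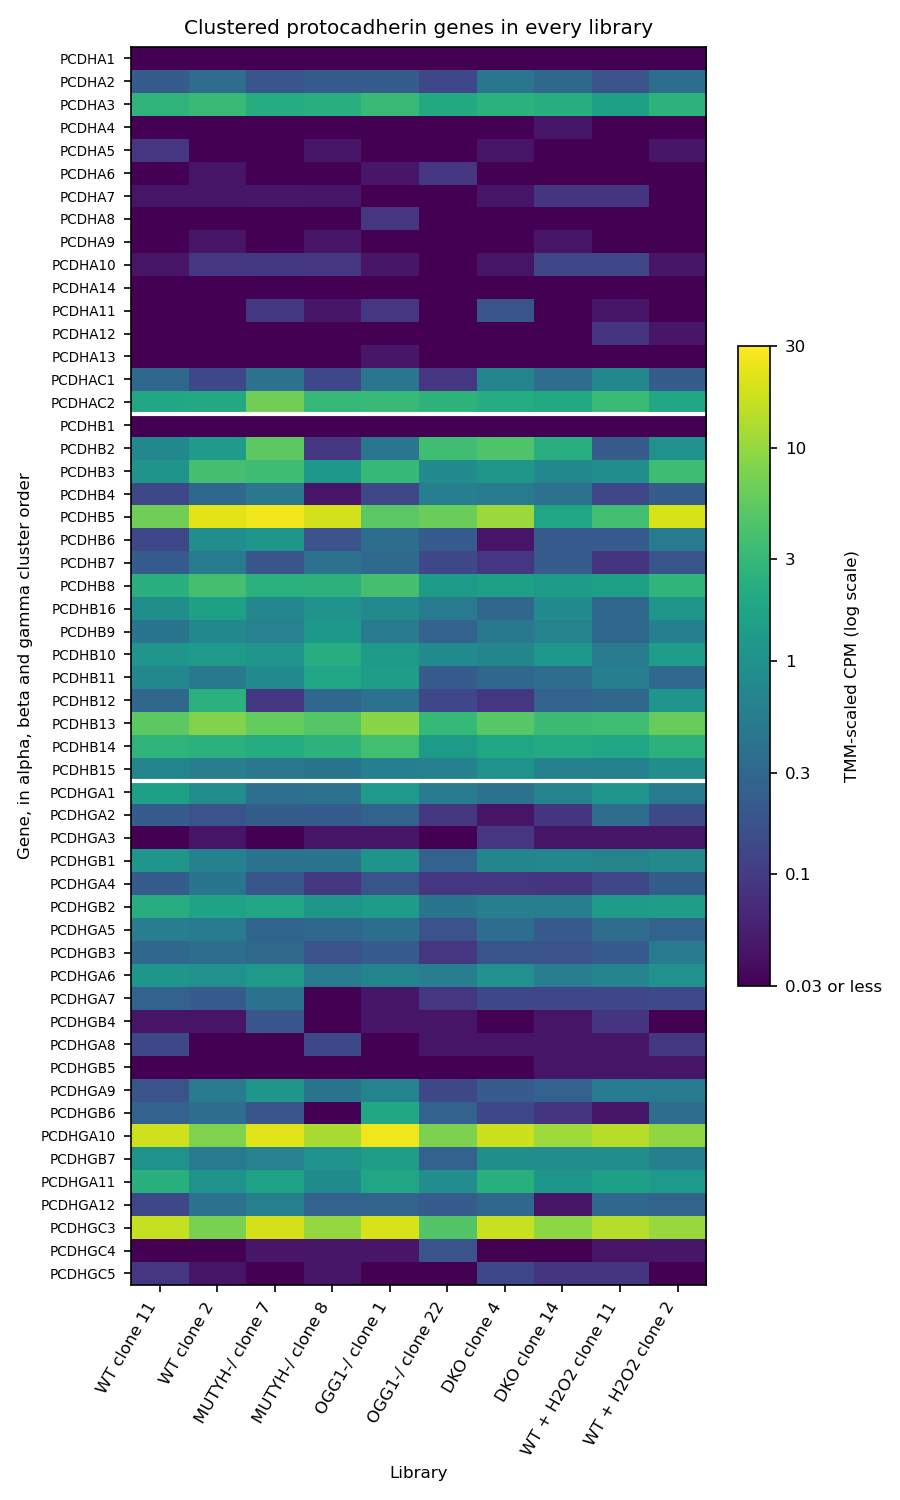
TMM-scaled CPM of the 54 clustered protocadherin genes (rows, in chromosomal order, white lines between the alpha, beta and gamma clusters) in each of the 10 libraries (columns), on a log colour scale where values of 0.03 CPM or less share the darkest colour. Most alpha genes are dark in every library, PCDHGA10 and PCDHGC3 are bright in every library, and beta genes such as PCDHB2 and PCDHB12 change from library to library.

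The alpha cluster was represented by PCDHA3 and by the C-type gene PCDHAC2, the only alpha members on in any library. PCDHA3 had counts of 61 and 71 in the WT libraries (clone 11, then clone 2), 47 and 55 in MUTYH-/ clones 7 and 8, 70 and 45 in OGG1-/ clones 1 and 22, 55 and 50 in DKO clones 4 and 14, and 35 and 57 in H2O2-treated WT clones 11 and 2. No library of PCDHA3 stood apart, and its mean over the untreated libraries was 2.54 ± 0.44 CPM (SD, n = 8). PCDHAC2, a C-type isoform known for its part in the spacing of serotonergic axons, had 43 and 44 counts in WT, 144 and 67 in MUTYH-/ clones 7 and 8, 70 and 58 in OGG1-/ clones 1 and 22, 48 and 45 in DKO clones 4 and 14, and 75 and 41 after H2O2 in clones 11 and 2. MUTYH-/ clone 7 was the highest library, above MUTYH-/ clone 8 and all others. These 2 genes together made up between 76.3% and 93.6% of all alpha counts in a library. PCDHAC1, the other alpha C-type gene, had 2 to 17 counts, and PCDHA2, next in the cluster per unshared length, had 3 to 10.

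In the beta cluster 13 of 16 members were on in at least 1 untreated library, and 4 of them (PCDHB5, PCDHB8, PCDHB13 and PCDHB14) in all 10 libraries. Per unshared length, PCDHB5 had the highest level of any member at 4.19 CPM per kb over the untreated libraries, followed in the cluster by PCDHB13 at 1.10 and PCDHB2 at 1.00 CPM per kb. The summed beta level was 23.6 and 51.3 CPM in WT clones 11 and 2, and 14.8 and 42.1 CPM in the same clones after H2O2. Clone 2 was the higher under both conditions.

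**Figure D2:**
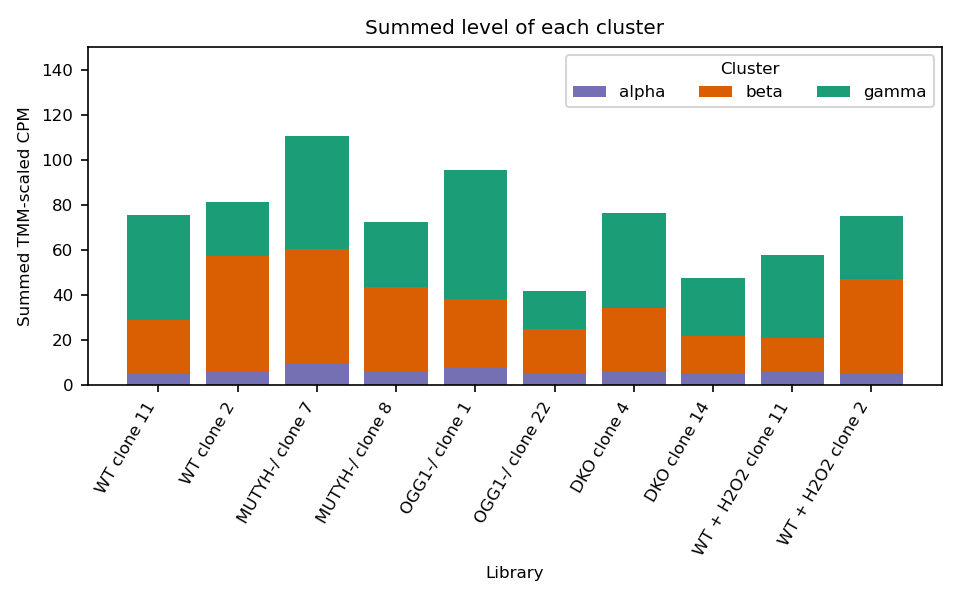
Summed TMM-scaled CPM of the alpha, beta and gamma members (stacked bars, starting at 0) in each of the 10 libraries. The alpha sum stays between 4.88 and 9.65 CPM, while the beta sum runs from 14.8 to 51.3 CPM and the gamma sum from 16.7 to 57.4 CPM.

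PCDHB2 had the widest range of log2 CPM over the untreated libraries. Its counts were 17 and 31 in WT (clone 11, then clone 2), 115 and 2 in MUTYH-/ clones 7 and 8, 10 and 82 in OGG1-/ clones 1 and 22, 101 and 52 in DKO clones 4 and 14, and 5 and 23 in WT clones 11 and 2 after H2O2. It was thus high in MUTYH-/ clone 7, both DKO clones and OGG1-/ clone 22, and at the detection floor in MUTYH-/ clone 8. The fold between the 2 MUTYH-/ clones was 59.9, with an exact 95% interval from counting error alone of 16.2 to 500.3. Between the 2 OGG1-/ clones it was 8.06 (4.17 to 17.4), in favour of clone 22. PCDHB4, the next beta gene but 1 along the chromosome, ran parallel at low counts: 3 and 7 in WT, 10 and 1 in MUTYH-/, 3 and 13 in OGG1-/, and 12 and 9 in DKO, in the same order of clones. The Pearson correlation of the 2 genes' log2 CPM over the 8 untreated libraries was 0.97, which describes libraries that share clones and depth, and PCDHB4 was picked out after its values were seen. PCDHB3, which lies between them, did not follow: its correlation with PCDHB2 was −0.01.

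PCDHB5 had counts of 150 in WT clone 11 and 512 in WT clone 2, 554 and 422 in MUTYH-/ clones 7 and 8, 112 and 143 in OGG1-/ clones 1 and 22, 240 and 40 in DKO clones 4 and 14, and 84 and 435 in WT clones 11 and 2 after H2O2. Both MUTYH-/ clones and WT clone 2 were high, and DKO clone 14 was the lowest library. PCDHB5 differed 6.10-fold between the DKO clones (4.35 to 8.75) and 5.35-fold between the treated WT clones (4.23 to 6.84). PCDHB12 had 55 counts in WT clone 2 and 25 in the same clone after H2O2. In the other 8 libraries it had 2 to 9 counts, so that it stood above 1 CPM in WT clone 2 alone, treated or not. The fold between the untreated WT clones was 7.87 (3.57 to 20.5).

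**Figure D3:**
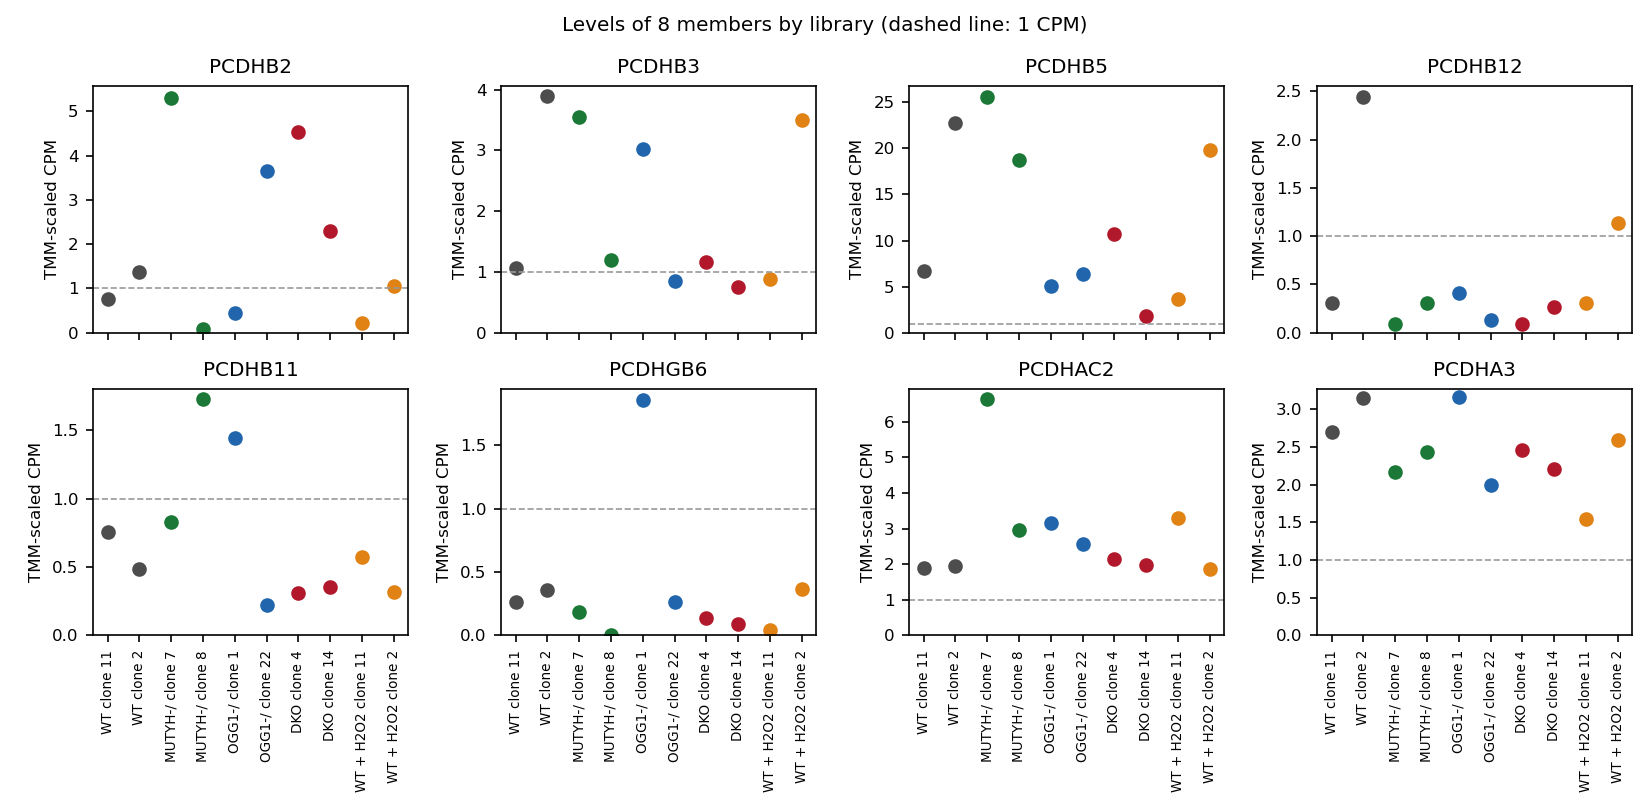
TMM-scaled CPM of 8 members (panels) in each library (points, coloured by group, with a dashed line at 1 CPM). PCDHB2 is high in 4 libraries that belong to 3 genotypes, PCDHB12 is above 1 CPM in WT clone 2 with and without H2O2, PCDHGB6 is above 1 CPM in OGG1-/ clone 1, and PCDHA3 is above 1 CPM everywhere.

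PCDHB3 had counts of 24 in WT clone 11 and 88 in WT clone 2, 77 and 27 in MUTYH-/ clones 7 and 8, 67 and 19 in OGG1-/ clones 1 and 22, 26 and 17 in DKO clones 4 and 14, and 20 and 77 after H2O2 in clones 11 and 2. It was high in 1 clone of each of the first 3 genotypes and in neither DKO clone. PCDHB6 had 24 and 4 counts in MUTYH-/ clones 7 and 8, 3 in WT clone 11 and 20 in WT clone 2, and 1 to 11 in the other 6 libraries. PCDHB11 had 39 counts in MUTYH-/ clone 8 and 32 in OGG1-/ clone 1, and 5 to 18 in the other 8. PCDHB16 had 7 to 34 counts, with the highest in WT clone 2, and PCDHB13 had 70 to 195, the highest in OGG1-/ clone 1.

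In the gamma cluster 10 of 22 members were on in at least 1 untreated library, but PCDHGA10 and the C-type gene PCDHGC3 alone took between 63.5% and 81.5% of the gamma counts of a library. PCDHGA10 had counts of 413 in WT clone 11 and 177 in WT clone 2, 461 and 281 in MUTYH-/ clones 7 and 8, 573 and 171 in OGG1-/ clones 1 and 22, 391 and 247 in DKO clones 4 and 14, and 327 and 208 after H2O2 in clones 11 and 2. PCDHGC3, the most broadly expressed C-type gene outside the nervous system, had 368 and 167, 419 and 229, 440 and 107, and 376 and 209 counts in the same untreated order, and 312 and 226 after H2O2. Within every genotype the clone on side B was the higher for both genes. On side A PCDHGA10 lay between 7.59 and 12.5 CPM and on side B between 17.5 and 25.9 CPM, and PCDHGC3 between 4.75 and 10.2 and between 16.3 and 19.9 CPM. With PCDHGA11 (0.842 to 1.15 against 1.62 to 2.42 CPM), 3 of 26 members that passed the filter on low counts were higher on side B without overlap, against 13.8% of the 17881 genes tested. None of the 26 was higher on side A without overlap, against 15.4% of all genes. Members that separate the sides were thus no more common than among genes at large.

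**Figure D4:**
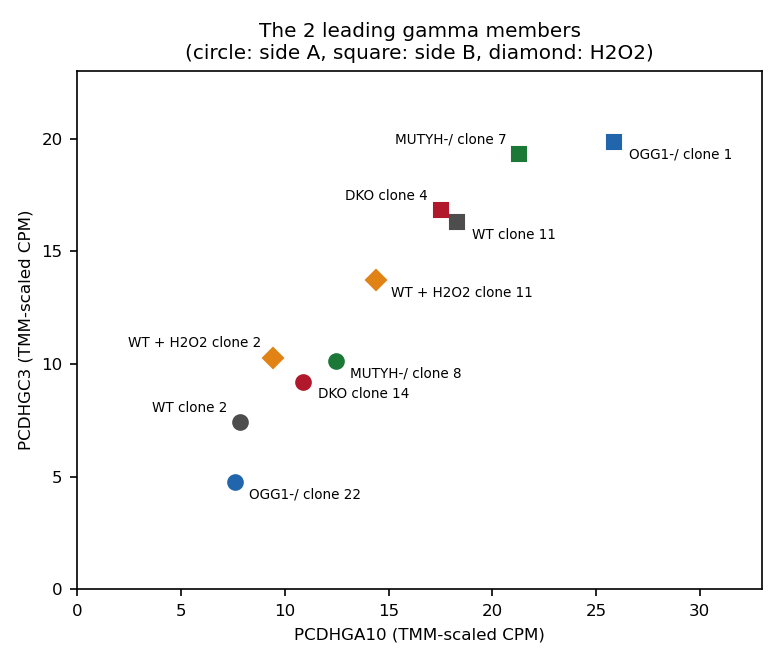
TMM-scaled CPM of PCDHGC3 (vertical) against PCDHGA10 (horizontal) in each of the 10 libraries, with circles for side A, squares for side B and diamonds for the treated WT clones. The 2 genes rise together, the 4 circles lie below 13 CPM and the 4 squares above 16 CPM on both axes, and the treated clones lie between 9 and 15 CPM.

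The ratio of PCDHGA10 to PCDHGC3 counts stayed between 0.920 and 1.60 in the 10 libraries, while each gene alone moved over a wider range. Per unshared length the 2 genes were at 3.41 and 3.99 CPM per kb, which is within the spread over libraries, and PCDHGB2, next in the cluster, was at 0.459 CPM per kb. Since the libraries lay in 2 separate clouds, no correlation of the 2 genes is given.

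PCDHGB6 had 41 counts in OGG1-/ clone 1 and 0 to 8 in the other 9 libraries. OGG1-/ clone 22 had 6 counts of it, a fold of 6.95 (2.94 to 20.0) between the OGG1-/ clones. PCDHGB7, its neighbour in the same B-type subfamily, had 32 counts in OGG1-/ clone 1, 6 in OGG1-/ clone 22 and 12 to 23 in the other 8. The 2 remaining C-type genes were at or near the floor: PCDHGC4, which supports the survival of interneurons, had 0 to 4 counts and PCDHGC5 0 to 3. C-type genes were therefore not alike in these cells, with PCDHAC2 and PCDHGC3 on in all 10 libraries and PCDHAC1, PCDHGC4 and PCDHGC5 below 1 CPM in all 10.

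To count such differences between clones by 1 rule, a member was said to switch where it was at 1 CPM or more in the higher clone and more than 4-fold apart from the other, with a prior count of 2. Between the WT clones 1 of 19 members on in either clone switched (PCDHB12), against 2.19% of all genes on in either. Between the MUTYH-/ clones it was 2 of 20 (PCDHB2 and PCDHB6) against 1.87%. Between the OGG1-/ clones it was 5 of 18 (PCDHB2, PCDHB11, PCDHGB6, PCDHGB7 and PCDHGC3) against 1.23%, and between the DKO clones 1 of 13 (PCDHB5) against 0.657%. Between the treated WT clones it was 1 of 17 (PCDHB5) against 1.65%. With 1 library per clone these are differences between libraries with no replicate of a clone, and 0 counts on the low side were never seen among them: the lower library held between 2 and 107 counts. PCDHB2 in the MUTYH-/ clones, at 115 and 2 counts, came nearest to a change between on and not detected. PCDHB5 and PCDHGC3 were on in all 10 libraries, so for them the rule marks a difference in level. The exact 95% interval from counting error began below 4-fold for PCDHB6 (2.15), PCDHB11 (2.52), PCDHB12 (3.57), PCDHGB6 (2.94), PCDHGB7 (2.24) and PCDHGC3 (3.38).

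The WT clones were each sequenced with and without H2O2, which gives the comparison of clones 2 cultures per clone. These cultures are not independent clones, so the p-values cover cultures of WT clones 2 and 11 only. In a fit of these 4 libraries with treatment as a covariate, 25 members passed the filter and 6 passed an unadjusted p of 0.05 at more than 2-fold, against 6.15% of the 16997 genes tested. All 6 were beta genes and higher in clone 2, against 3.13% of all genes higher in clone 2. PCDHB5 was higher by 2.07 ± 0.21 on the log2 scale (SE, edgeR quasi-likelihood test, Benjamini-Hochberg adjusted p = 3.1e-05), PCDHB3 by 1.92 ± 0.31 (edgeR adjusted p = 0.0016) and PCDHB12 by 2.46 ± 0.46 (edgeR adjusted p = 0.0044). PCDHB6 (1.92 ± 0.61), PCDHB2 (1.37 ± 0.47) and PCDHB16 (1.12 ± 0.44) passed the unadjusted threshold only, with edgeR adjusted p-values of 0.071, 0.095 and 0.14. Under the DESeq2 Wald test 3 members were called, PCDHB5, PCDHB3 and PCDHB12. By the unadjusted p alone 11 of 25 passed in edgeR, against 22.4% of genes. PCDHGA10 and PCDHGC3 moved the other way and by less than 2-fold: clone 2 minus clone 11 was −0.91 ± 0.20 and −0.77 ± 0.21 on the log2 scale (edgeR adjusted p = 0.010 and 0.033). At an adjusted p of 0.05 that makes 5 of 25 members, 3 beta and 2 gamma, against 9.31% of all genes. Between the WT clones, PCDHB5, PCDHB3 and PCDHB12 were thus higher in the clone in which PCDHGA10 and PCDHGC3 were lower. Of these beta genes only PCDHB5 leads its cluster per unshared length, and PCDHB13, next to it in level, was not among the 6. The sums of the other genotypes did not show this opposition. In MUTYH-/ clones 7 and 8 the beta sum was 50.5 and 37.5 CPM and the gamma sum 50.3 and 28.8 CPM. In OGG1-/ clones 1 and 22 these sums were 30.9 and 20.1, and 57.4 and 16.7 CPM. In DKO clones 4 and 14 they were 28.3 and 16.4, and 42.1 and 26.1 CPM.

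**Figure D5:**
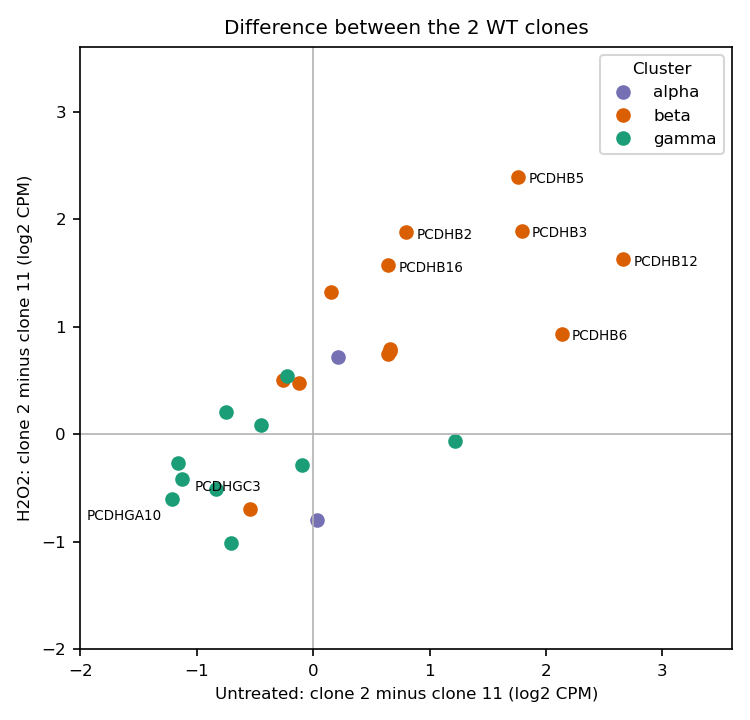
Difference in log2 CPM between WT clone 2 and WT clone 11 with H2O2 (vertical) against that without (horizontal) for the 25 members that passed the filter on low counts (points, coloured by cluster). PCDHB5, PCDHB3, PCDHB12, PCDHB6, PCDHB2 and PCDHB16 lie in the upper right and PCDHGA10 and PCDHGC3 in the lower left.

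The 6 members that were more than 2-fold apart between the untreated WT clones, at 1 CPM or more, all kept their direction 24 h after H2O2. Among all genes 981 of 1094 did so (89.7%), so such stability was not particular to the members.

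H2O2 itself was compared with no treatment in the same 2 clones. None of the 25 members tested passed an unadjusted p of 0.05 in edgeR, with or without the fold threshold, against 1.75% of genes with it and 7.63% without, and 0 were called by the DESeq2 Wald test. With the clone as a block, which the design allows because the same clones were treated, 0 members passed both thresholds, against 2.78% of genes, and 2 passed the unadjusted p alone, against 20.1%: PCDHB5, at −0.47 ± 0.20 on the log2 scale (edgeR adjusted p = 0.21), and PCDHB13, at −0.50 ± 0.22 (edgeR adjusted p = 0.23). The median log2 difference of the members was −0.36, that of all genes tested 0.00. In clone 11, 22 of 25 members were lower after H2O2 against 47.9% of genes, and in clone 2, 16 of 25 against 49.4%. In both clones 13 of 25 were lower, against 31.4% of genes. These counts are a description of 2 pairs of libraries, and no single member passed an adjusted p of 0.05.

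The genotypes were compared in a fit of the 8 untreated libraries, in which 26 of the 54 members passed the filter and 28 were too low to be tested. MUTYH-/ against WT gave 2 members at an unadjusted p of 0.05 and more than 2-fold, against 1.19% of the 17881 genes tested. PCDHAC2 was higher by 1.32 ± 0.42 on the log2 scale (edgeR adjusted p = 1.00) and PCDHGA1, an A-type gamma gene, was lower, with a log2 difference of −1.63 ± 0.57 (edgeR adjusted p = 1.00). The same 2 passed the unadjusted p alone, against 1.72% of genes. PCDHGA1 had 34 and 20 counts in WT and 8 and 9 in MUTYH-/, with no overlap, but left the call without MUTYH-/ clone 7 or 8 or WT clone 11, with log2 differences of −1.59, −1.68 and −1.20. The call of PCDHAC2 rests on MUTYH-/ clone 7, without which the difference was 0.61 and was not called, and it was also lost without WT clone 11 or 2, at differences of 1.30 and 1.33. OGG1-/ against WT gave 0 members in edgeR, with or without the fold threshold and by DESeq2, against 1.67% of genes with it and 2.74% without. DKO against WT gave 1 of 26, against 1.77%: PCDHGB2, a B-type gamma gene, was lower, with a log2 difference of −1.71 ± 0.57 (edgeR adjusted p = 1.00). Its counts were 50 and 36 in WT, 13 and 13 in the DKO clones, and 30 and 10 in OGG1-/ clones 1 and 22. OGG1-/ clone 22 bears the number of the listed parent of both DKO clones, which are then not independent of each other. The call of PCDHGB2 was lost without either DKO clone or without WT clone 11, with differences of −1.71, −1.73 and −1.45 without DKO clone 14, DKO clone 4 and WT clone 11. With sides A and B as a block PCDHAC2, PCDHGA1 and PCDHGB2 stayed called in these comparisons, at log2 differences of 1.24, −1.59 and −1.69, and PCDHGB2 was also called in OGG1-/ against WT at −1.16. DKO against OGG1-/ gave 0 members in edgeR at either threshold and by DESeq2, against 1.44% of genes with the fold threshold and 2.62% without. No member passed an adjusted p of 0.05 in any of the 4 comparisons, which share the same WT or OGG1-/ libraries.

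The spread between the clones of a genotype was wide for the members that varied most. PCDHB2, at 1.06 ± 0.44 CPM in WT, 2.70 ± 3.69 in MUTYH-/, 2.05 ± 2.25 in OGG1-/ and 3.41 ± 1.58 in DKO (SD, n = 2 each), had a standard error of 1.42 on the log2 scale in MUTYH-/ against WT. PCDHB5, at 14.7 ± 11.4, 22.1 ± 4.86, 5.70 ± 0.91 and 6.25 ± 6.35 CPM in the same order, had a standard error of 0.79. The median absolute log2 difference of the tested members between genotypes ran from 0.36 to 0.60 over the 4 comparisons, and that of all tested genes from 0.13 to 0.17.

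OGG1-/ clone 22 stood out as the library with the lowest member levels. It was the lowest of the 8 untreated libraries for 13 of the 26 members tested, against 18.1% of all genes tested, and 23 of 26 lay below their mean over the 8 libraries, against 48.7% of genes. The summed level of all 54 members was 41.7 CPM there, 47.6 CPM in DKO clone 14, and 72.3 to 110.4 CPM in the other 6 untreated libraries. With OGG1-/ clone 1 left out, 5 of 31 members were called lower in OGG1-/ than in WT (PCDHB8, PCDHB13, PCDHB14, PCDHGB1 and PCDHGB2), against 1.60% of genes called lower in that fit. With clone 22 left out, none was lower and PCDHGB6 was called higher, and in DKO against OGG1-/ 5 of 31 members (PCDHB8, PCDHB11, PCDHB13, PCDHGB2 and PCDHGB6) were then called lower in DKO, against 0.727% of genes. DIAPH1, which lies just beyond the gamma cluster, was also lowest in that library at 175.5 CPM, and in the range of 216.9 to 336.8 CPM in the other 9. NDUFA2, another gene near the clusters, was highest in that library at 29.2 CPM. For 15 genes around the clusters with at least 10 CPM in every library, log2 departures from their untreated mean were taken. In OGG1-/ clone 22 they ran from −0.61 to 0.41 with a median of 0.03. Any part of the region in the member levels was not tested.

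OGG1-/ clone 22 bears the number of the listed parent of both DKO clones, and its members were set against theirs, a comparison that was added after the values were seen. Among the 15 tested members that were more than 2-fold apart between the OGG1-/ clones, DKO clone 14 was nearer to clone 22 than to clone 1 for 12, against 66.5% of the 1969 such genes, and both DKO clones were nearer to clone 22 for 10, against 24.1%. These 10 were PCDHB2, PCDHB3, PCDHB4, PCDHB8, PCDHB11, PCDHB13, PCDHB14, PCDHGA1, PCDHGB2 and PCDHGA9. Both DKO clones were nearer to OGG1-/ clone 1 for PCDHAC1, PCDHGB1 and PCDHGB7. DKO clone 4 alone was nearer to OGG1-/ clone 1, which is on its own side, for PCDHGA10 and PCDHGC3. The 15 members were chosen by the difference between the OGG1-/ clones and share libraries, so these counts carry no test. WT and MUTYH-/ clones were not counted in this way, so nearness to clone 22 is not shown to be particular to the DKO clones.

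Lists of the factors that act on protocadherin promoters, of the genes around the clusters and of related genes were tested in the same fits. All 27 genes of the list of factors, among them CTCF, cohesin subunits, SMCHD1, which silences clustered genes, and the DNA methyltransferases, were tested in each comparison and 0 were called by edgeR in any of the 6. By the unadjusted p alone 4 passed between the WT clones (DNMT3A, EED, SUZ12 and UHRF1), against 22.4% of all genes tested. After H2O2 it was 4 (LRIF1, STAG1, DNMT3B and ZNF274) against 7.63%, and between genotypes 0 against 1.72% to 2.94%. CTCF lay between 108.1 and 148.7 CPM and DNMT3B, which methylates these promoters, between 35.1 and 58.7 CPM in the 10 libraries. Of 21 neighbouring genes, 17 were tested in the untreated fit and 0 were called by edgeR in any comparison. Among them 2 passed the unadjusted p between the WT clones, 3 after H2O2 and 0 between genotypes, beside the same shares of all genes. Of 9 kinases and cytoskeletal partners that signal from protocadherins, 1 was called, RET, a receptor tyrosine kinase. It was lower in WT clone 2, against 6.15% of all genes called between the WT clones. Of 12 protocadherin genes outside the clusters, 9 were tested between genotypes and 8 in the fits of the WT libraries. PCDH18 and PCDH19 were lower in WT clone 2, beside the same 6.15% of all genes. PCDH17 was higher in DKO than in OGG1-/, against 1.44% of all genes. In the other 4 comparisons 0 of those tested were called by edgeR. Of 7 neuronal markers, 6 were tested between genotypes and 5 in the fits of the WT libraries, with calls in 3 comparisons. NEFL was lower in MUTYH-/ and OGG1-/ than in WT, against 1.19% and 1.67% of all genes. MAP2 was lower and NEFL higher in WT clone 2 than in WT clone 11, against 6.15%. The WT level of NEFL rested on WT clone 2, with 365 counts, while WT clone 11 had 11 and no knockout clone had more than 21. Of those 7 markers, 2 stayed below 1 CPM in all 10 libraries, and their summed level ran from 8.70 to 30.8 CPM. Their part in the members' differences was not tested.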

How the data were processed

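Members, gene lists and tests were chosen with earlier results of these data known. RNA was sequenced by the study on the DNBseq platform. According to its methods the authors aligned reads to GRCh38 with HISAT2 2.2.1 and counted them per gene with featureCounts on an Ensembl annotation, and per the labels R 4.2.2 and edgeR 3.42.4 were used. The strand, multi-mapping and overlap settings are not given in the sources used here. The deposited counts are raw whole numbers per gene, and the table of the treatment holds second copies of the 2 untreated WT columns, which were used once. Here edgeR 4.0.16 (R 4.3.3; legacy quasi-likelihood test, TMM factors, its default filter on low counts) was fitted over all genes, with 8 untreated libraries together for the genotypes, 4 for H2O2, and the same 4 with treatment as covariate for the WT clones. Calls followed the study's criterion, p up to 0.05 before adjustment together with a change of over 2-fold, with Benjamini-Hochberg values beside it. DESeq2 1.42.0 was an alternative. p-values of the genotype fits and of H2O2 without a block measure the spread between clones, each 1 library. Both DKO clones are listed with the same OGG1-/ parent, so the spread between them does not cover independently made knockouts. Those of the fit of the WT clones, and of H2O2 with the clone as a block, cover cultures of these 2 clones only. Intervals of a fold are exact and cover counting error only. Unshared exon bases came from GENCODE release 44. Members were named where they passed the criterion, switched between clones, are C-type genes, or were among the 3 highest of their cluster per unshared kb, which gave 20. The clone numbers of the treated and untreated WT libraries are the same clones, so they pair the samples, and the clone differences with and without H2O2 correlated at 0.68 over 16997 genes. On simulated counts the fits recovered the seeded changes, which were far over 2-fold, at a fixed spread and only in better-counted genes. Changes near 2-fold and members at low counts were not covered by it. Alternatives are given in the closing section.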

Additional observations from a re-analysis of the deposited data

How the results depend on the processing

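The number of members called was within 1.5 times of the value reported under DESeq2 size factors and the edgeR 4 test in all 6 comparisons. Without a filter on low counts it was 3 for DKO against WT, 1 for OGG1-/ against WT and 1 for DKO against OGG1-/. With the 2 sides as a block it was 2 for DKO against WT and 1 for OGG1-/ against WT, PCDHGB2 in both, and with 2 groups only it was 3 for DKO against WT. Leaving out 1 library at a time gave 0 to 1 for MUTYH-/, 0 to 5 for OGG1-/ and 1 to 2 for DKO against WT, 0 to 5 for DKO against OGG1-/, and 0 to 1 for H2O2. With the clone as a replicate block, the paired fit of H2O2 gave 0 members. The DESeq2 Wald test gave 3 for the WT clones, where leaving out a library left no residual degrees of freedom and was not run. Over these settings the genes called ran from 117 to 702, 165 to 806, 260 to 705 and 194 to 552 in the 4 genotype comparisons, from 154 to 510 for H2O2 and from 742 to 1387 for the WT clones. The log2 changes of called members, and of PCDHGA10 and PCDHGC3 between the WT clones, kept their direction, with 47 of 50 on the same side of the call under the other settings and 3 of 12 when a library was left out. Uncalled members could turn: without OGG1-/ clone 1, PCDHB11 went from 0.43 to −1.47 in OGG1-/ against WT and from −1.31 to 0.58 in DKO against OGG1-/, and without MUTYH-/ clone 7, PCDHB2 went from 1.34 to −3.52 in MUTYH-/ against WT. The switching members were, for WT, MUTYH-/, OGG1-/, DKO and treated WT, 6, 6, 13, 2 and 7 at over 2-fold, 0, 1, 0, 0 and 0 at over 8-fold, and 2, 2, 5, 1 and 1 at 0.5 CPM. At 0.5 CPM the members on were 25 in WT clone 2, 17 in OGG1-/ clone 22, 19 and 20 in DKO clones 4 and 14 and 20 in treated clone 11. At 1 CPM per kb they were 4, 6, 7, 3, 6, 4, 4, 2, 4 and 6 in the libraries in the order WT 11 and 2, MUTYH-/ 7 and 8, OGG1-/ 1 and 22, DKO 4 and 14, and treated WT 11 and 2. At about 22 counts per CPM, a member under 1 CPM may be expressed below what this depth resolves.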
